A study of Rattus norvegicus with 12 samples.

Results

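Hox genes were followed in injured rat kidney as the genes whose probe name in the array files is Hox with a cluster letter, a to d, and a paralogue number. The rule found 28 probes of 26 genes among 30367 probes other than controls. Of these genes, 22 were bright enough to be tested, among 18503 genes tested in all. The samples were whole left kidneys of F344 rats, which are inbred; all were females and 10 weeks old. Of the groups, the first had a sham operation and was sacrificed on day 7, the second was taken 3 days after ischemia-reperfusion injury (IRI) and the third 7 days after it, with 4 arrays each. In IRI the blood supply of the kidney is stopped and then restored. Injured kidneys of day 3 thus had to be set against sham kidneys of a later day. RNA was measured on an Agilent single-colour array, where the brightness of a spot follows the amount of an RNA that binds its probe.

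Hox genes encode transcription factors that bind DNA through a homeodomain and give cells their position along the body axis. They lie in the clusters HoxA, HoxB, HoxC and HoxD, and the paralogue number follows the order within a cluster, with low numbers used in anterior and high numbers in posterior parts of the embryo. In the developing kidney, Hox genes of the posterior groups act with Eya1 and Pax2 on the progenitors of the nephron, and Hoxb7 is known from the ureteric bud, from which the collecting duct grows. These arrays were made from whole kidney, so they do not place a Hox gene along the nephron, and fewer cells of a type and less RNA per cell cannot be told apart.

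All levels are log2 of the background-corrected signal minus the log2 of the array's 75th percentile, so a value of 0 is that percentile and a difference of 1 is a doubling. That percentile was itself brighter after injury, at 224.7 to 394.2 intensity units on the sham arrays, rising to 665.2 to 743.2 on those of day 3, with 421.9 to 561.6 on those of day 7. Before this scaling the median log2 difference between day 3 and sham was 1.02 over all genes and 0.34 over the 22 Hox genes, of which 16 were brighter and 6 dimmer. A lower Hox level at day 3 therefore means lower relative to the other genes on the array. Between 65.0% and 80.6% of the spots on an array were well above background. Of 56 kidney epithelial markers with a probe, 51 were above background on every sham array. Correlations between arrays of a group ran from 0.942 to 0.984 over the probes.

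At day 3 after injury the Hox genes were low as a family. Relative to sham, 14 of 22 tested Hox genes fell (adjusted p below 0.05, limma), and the other 8 had negative fold changes that did not pass the threshold. Over all genes tested, 33.1% fell in this comparison and 57.3% changed in either direction. The median log2 fold change was -0.81 over the Hox genes and -0.13 over all genes, and the Hox fold changes ran from -1.80 for Hoxb1 to -0.27 for Hoxb7. With no filter on dim probes, the medians were -0.76 over 26 Hox genes and -0.47 over 26423 genes. Hoxa13 and Hoxb13, above background on no array, had lower means at day 3 too (-5.38 to -5.97 and -6.20 to -6.98). The part of such a shift in the falls of dim Hox probes was not tested. Every day 3 array lay below every sham array for 11 Hox genes, where 29.5% of all genes showed this. Under total signal scaling, which moved the median of all genes to 0.15, 21 of 22 Hox fold changes were negative, their median was -0.53 and 8 Hox genes fell, without Hoxa7, Hoxa9, Hoxb6, Hoxc4, Hoxd4 and Hoxd9. With normexp background correction all 22 were negative and 4 fell, namely Hoxb4, Hoxb8, Hoxc5 and Hoxd10. When spots below their local background were set aside before that correction, 19 Hox genes fell, as did 7996 of 18503 genes in all.

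By day 7 most of the family was back near the sham level. Relative to day 3, 9 Hox genes rose and 1, Hoxc4, fell, where 18.0% of all genes rose, 13.4% fell and 31.4% changed in either direction. In 8 of the 9 the day 7 arrays all lay above the day 3 arrays, as they did for 18.6% of all genes. The median log2 fold change from day 3 to day 7 was 0.63 over the Hox genes and 0.05 over all genes. With normexp background correction 2 rose, Hoxd9 and Hoxd10. When spots below their local background were first set aside, 14 Hox genes rose, as did 5135 of 18503 genes in all. Relative to sham, Hoxd9 rose and Hoxc4 fell at day 7, where 8.21% of all genes rose, 10.6% fell and 18.8% changed in either direction. The median over the Hox genes was then -0.19, against -0.07 over all genes, and it was 0.05 with total signal scaling, where the median of all genes was 0.17. Both comparisons of an injured group with sham use the same sham arrays.

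**Figure D1:**
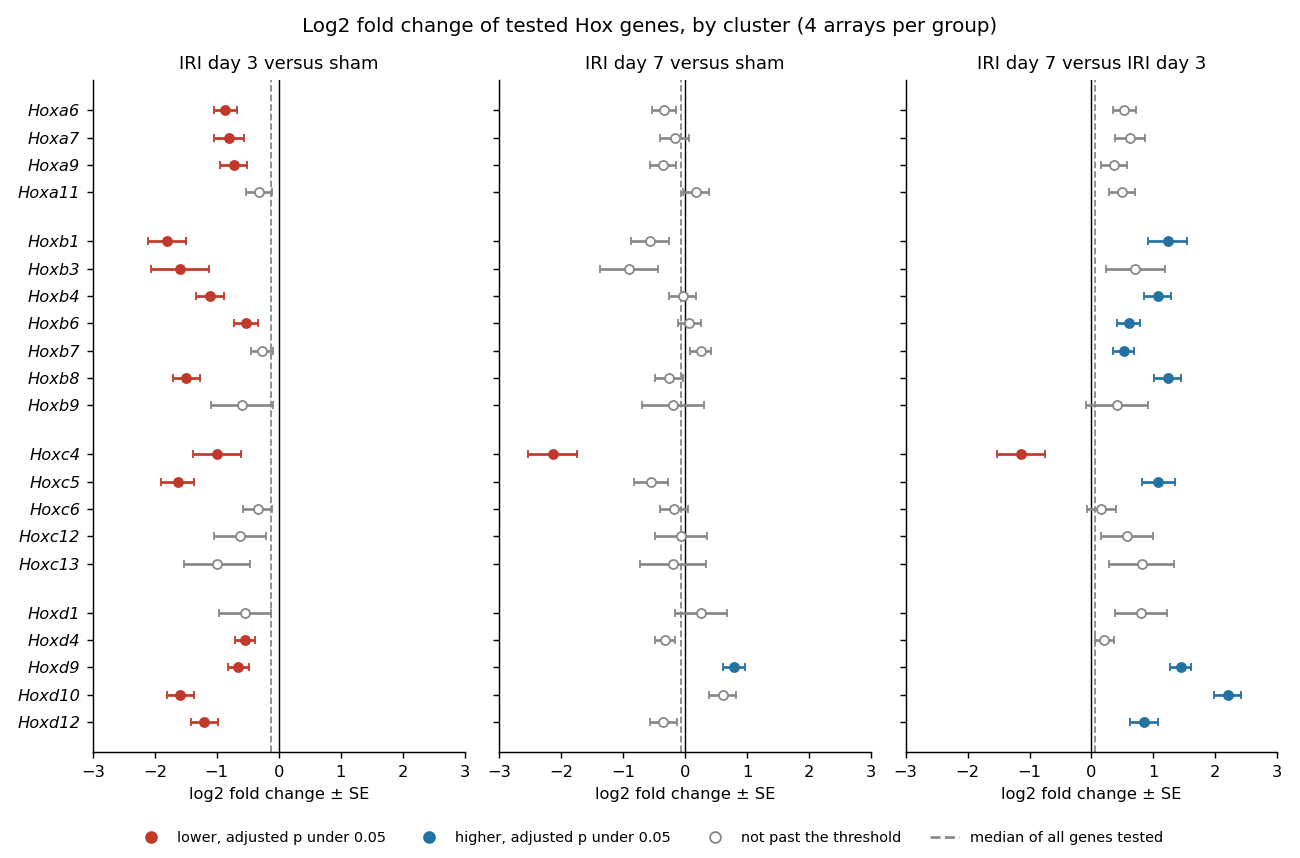
Log2 fold change with its standard error (horizontal axis) of 21 tested Hox genes, grouped by cluster, in the 3 comparisons of groups of 4 arrays; filled points passed an adjusted p of 0.05 and the dashed line is the median of all 18503 genes. All 21 points lie left of 0 at day 3 against sham, and 20 of 21 lie right of 0 between day 3 and day 7.

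Seen array by array, the median difference of the 22 Hox genes from their own sham mean was -0.71, -0.88, -0.71 and -0.86 on the day 3 arrays. It was -0.04, -0.12, -0.29 and 0.12 on the day 7 arrays and ran from -0.11 to 0.18 on the sham arrays themselves. The day 3 arrays thus stood apart from both other groups, whose ranges overlapped. Between 13 and 18 of the 22 genes lay below the lowest sham value on a day 3 array, and 6 to 9 on a day 7 array. Over all genes tested, 38.3% to 41.5% did so on a day 3 array and 26.8% to 34.5% on a day 7 array.

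In the HoxD cluster 4 of 5 tested genes fell at day 3, with a median log2 fold change of -0.65, and it held the largest rises from day 3 to day 7, those of Hoxd10 and Hoxd9. Hoxd10, a posterior gene known from the lumbar spinal cord and the hind limb, has a probe at chr3:57309214-57309273 of rn4. Hoxd9, its neighbour in the cluster, has one at chr3:57314446-57314505. Both probes hold the hexamer AATAAA, whose letters are those of the polyadenylation signal, and 30 bases around it are given, with the hexamer in capitals, to show the letters these probes bind. The hexamer stands in 8 of the 28 Hox probes, that of Hoxa6 included, and does not place a probe in its message.

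Hoxd10: catgtgtaatgcAATAAActctggaaatga

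Hoxd9: ccgcttcctacaAATAAAtgctgatctgaa

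The level of Hoxd10 was 1.01, 1.65, 1.41 and 0.90 on the sham arrays, -0.02, -0.25, -0.39 and -0.73 at day 3, and 2.08, 2.03, 1.92 and 1.39 at day 7. Every day 3 array lay below all others, while the sham and day 7 ranges overlapped. Hoxd10 fell by 1.59 ± 0.22 on the log2 scale (SE, n = 4) at day 3, a 3.01-fold drop (adjusted p = 0.000123, limma). It rose 4.60-fold from day 3 to day 7, with a log2 fold change of 2.20 ± 0.22 (adjusted p = 0.000169). Against sham, its log2 fold change at day 7 was 0.61 ± 0.22 and did not pass the threshold (adjusted p = 0.0755). It passed at 0.75 without sham replicate 2 (adjusted p = 0.0461) and at 0.77 without day 7 replicate 4 (adjusted p = 0.0347), and its adjusted p ran from 0.0215 to 0.229 over 24 alternatives. On the intensity scale before scaling, the Hoxd10 signal ran from 596 to 1090 on sham arrays, from 447 to 724 on day 3 arrays and from 1100 to 2260 on day 7 arrays. Before scaling, 16 of the 22 Hox genes were brighter at day 3 and 6 dimmer. Hoxb1 ran from 59.3 to 120 on sham arrays and from 46.9 to 55.2 on day 3 arrays, without overlap. For Hoxc5 these ranges overlapped, at 182 to 429 and 133 to 280. Hoxd9 ran from 608 to 1080 on sham arrays and from 950 to 1150 on day 3 arrays. For Hoxd12 these ranges were 61.3 to 81.3 and 45.4 to 82.2, and for Hoxa6 they were 201 to 292 and 228 to 386.

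Hoxd9, which acts in limb patterning, was the 1 Hox gene that rose above sham at day 7. Its level was 1.20, 0.83, 1.44 and 1.46 in sham, 0.64, 0.41, 0.73 and 0.55 at day 3, and 2.30, 1.82, 1.91 and 2.04 at day 7. The groups did not overlap: every day 3 array was below and every day 7 array above all sham arrays. Over all genes tested, 9.04% had every day 7 array above sham. Hoxd9 fell by 0.65 ± 0.17 on the log2 scale at day 3 (adjusted p = 0.00668, limma). It rose by 1.44 ± 0.17 from day 3 to day 7 (adjusted p = 0.000432) and stood 0.79 ± 0.17 above sham, a 1.72-fold difference (adjusted p = 0.0100). The value above sham ran from 0.65 to 1.02 and passed in 23 of 24 alternatives, the exception being normexp background correction (0.85, adjusted p = 0.234). The fall at day 3 did not pass with that correction or with total signal scaling (-0.37, adjusted p = 0.0860).

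Hoxd12, needed for the formation of digits, gave a dim signal of -2.10, -2.34, -1.87 and -2.48 in sham, -3.33, -3.24, -3.87 and -3.18 at day 3, and -2.04, -2.75, -2.81 and -2.59 at day 7. Day 3 lay below both other groups, and its probe was above background on 3 of 4 arrays there. Hoxd12 fell by 1.20 ± 0.22 on the log2 scale at day 3 (adjusted p = 0.000685, limma) and rose by 0.85 ± 0.22 to day 7 (adjusted p = 0.0140). Its difference from sham at day 7 was -0.35 ± 0.22 (adjusted p = 0.287). The rise was lost with quantile normalization (0.61, adjusted p = 0.0509), and both calls with normexp background correction.

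Hoxd4, a central gene of the hindbrain that responds to retinoic acid, was at -1.20, -1.23, -1.26 and -1.57 in sham, -1.63, -2.06, -2.08 and -1.66 at day 3, and -1.73, -1.55, -1.47 and -1.84 at day 7. The day 3 arrays lay below sham but overlapped with day 7. Hoxd4 fell by 0.54 ± 0.16 on the log2 scale at day 3 (adjusted p = 0.0120, limma), and its change from day 3 to day 7 was 0.21 ± 0.16 (adjusted p = 0.326). The fall was lost with total signal scaling (-0.27, adjusted p = 0.174), quantile normalization (-0.37, adjusted p = 0.0543) and normexp background correction (-0.64, adjusted p = 0.155). Hoxd1, the anterior end of the cluster, had log2 fold changes of -0.55 ± 0.42 at day 3 and 0.80 ± 0.42 between the days and passed in neither (adjusted p = 0.274 and 0.155). Without sham replicate 3 the latter had an adjusted p of 0.0347 and the day 3 difference shrank to -0.08 (adjusted p = 0.822), and that array lay far above the other sham arrays (-2.16 against -4.24 to -3.64). The Hoxd1 probe was above background on 2 sham, 4 day 3 and 3 day 7 arrays, so it was tested only through the day 3 arrays.

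The stretches just upstream of the Hoxd12, Hoxd10 and Hoxd9 genes are printed because these genes of the HoxD cluster fell at day 3 and rose to day 7. They are the 250 bases before the gene start given by RefSeq on the build GRCr8, at chr3:79984856-79985105, chr3:80001697-80001946 and chr3:80007756-80008005, all on the plus strand. Capitals mark matches, on either strand, to CCAAT, the box bound by the factor NF-Y, to GGGCGG, a site of Sp1, and to AGGTCA, the half-site of retinoic acid and other nuclear receptors.

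Hoxd12: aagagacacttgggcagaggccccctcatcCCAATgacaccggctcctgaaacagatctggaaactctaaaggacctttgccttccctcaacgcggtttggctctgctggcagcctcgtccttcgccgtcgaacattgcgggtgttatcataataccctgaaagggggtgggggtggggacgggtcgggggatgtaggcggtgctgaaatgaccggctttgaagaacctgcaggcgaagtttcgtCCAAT

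Hoxd10: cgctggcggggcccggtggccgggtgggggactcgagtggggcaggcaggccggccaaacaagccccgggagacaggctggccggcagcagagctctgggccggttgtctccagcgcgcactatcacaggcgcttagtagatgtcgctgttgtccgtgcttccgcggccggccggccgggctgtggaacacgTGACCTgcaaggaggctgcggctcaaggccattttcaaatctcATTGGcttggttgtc

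Hoxd9: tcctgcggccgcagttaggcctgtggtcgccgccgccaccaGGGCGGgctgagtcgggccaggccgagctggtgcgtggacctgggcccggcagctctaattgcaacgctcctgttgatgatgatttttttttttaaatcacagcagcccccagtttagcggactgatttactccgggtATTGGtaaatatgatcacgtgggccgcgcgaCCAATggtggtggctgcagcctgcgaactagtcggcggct

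All of these hold CCAAT, with 2 matches each in Hoxd12 and Hoxd9 and 1 in Hoxd10. The RefSeq table held promoters of 14 of the 26 Hox genes, and CCAAT stood in 11 of those 14, against 34.0% of all 33469 promoters of the same length. GGGCGG stood in 7 of 14 against 30.5%, and AGGTCA in 3 of 14 against 14.1%. The other motifs searched, also on both strands, were TATAAA (2 of 14 against 12.9%), TGATNNAT (2 of 14 against 8.0%), TAATTA (in no Hox promoter against 4.9%) and TTTATGG (in no Hox promoter against 2.7%). The median GC content was 58.6% in the 14 Hox promoters and 51.2% in all. These matches describe the letters in the window.

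**Figure D2:**
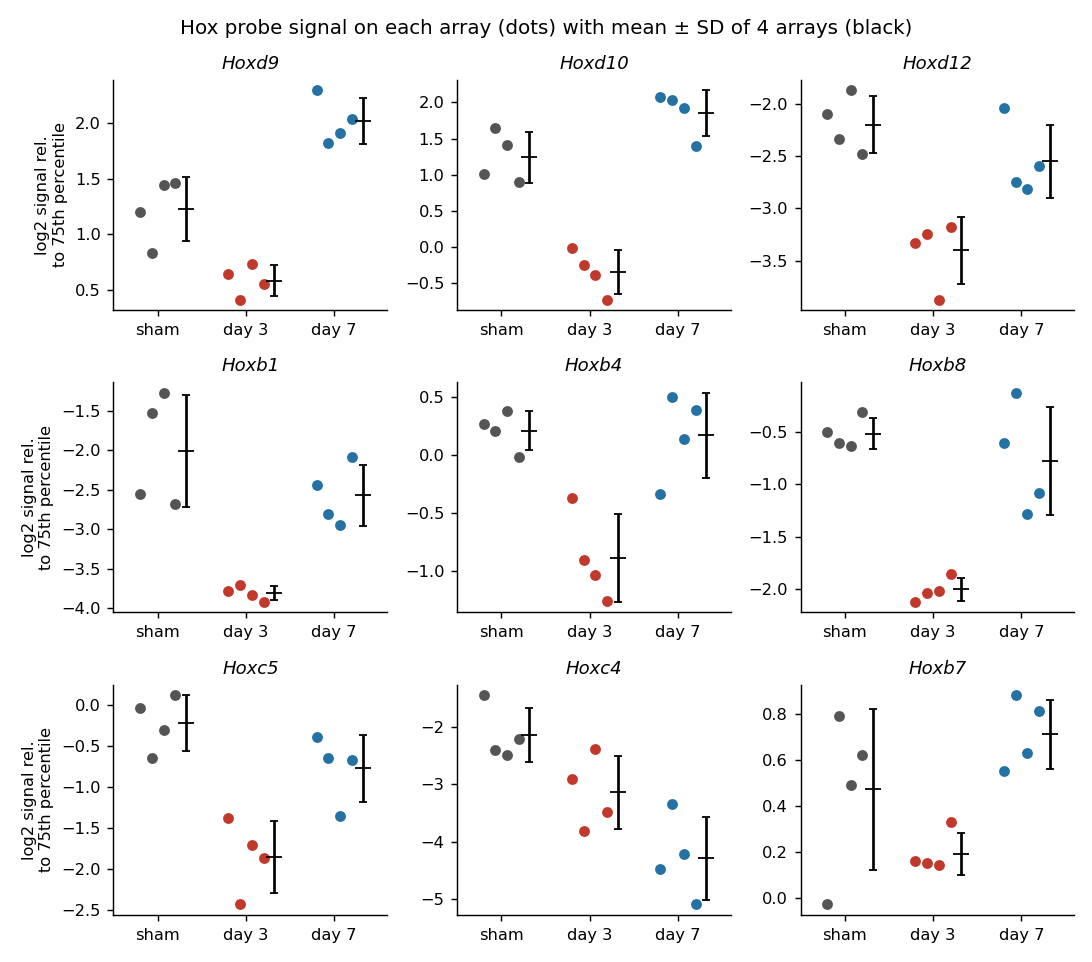
Log2 signal minus the array's 75th percentile (vertical axis, own scale per panel) of 9 Hox genes on each sham, IRI day 3 and IRI day 7 array, with the mean and SD of 4 arrays in black. Hoxd9 and Hoxd10 drop at day 3 and are highest at day 7, while Hoxc4 is lowest at day 7.

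In the HoxB cluster 5 of 7 tested genes fell at day 3, with a median log2 fold change of -1.11, and 5 rose between day 3 and day 7. Hoxb1, which marks a segment of the embryonic hindbrain, showed the largest fall of all Hox genes. Its probe lies at chr10:85099950-85100009 of rn4. Its letters are given because they lie in the homeobox, the conserved part of the family, and yet share no run of 12 bases with another Hox probe.

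Hoxb1: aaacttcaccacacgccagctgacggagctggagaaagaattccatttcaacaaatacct

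The level of Hoxb1 was -2.55, -1.53, -1.27 and -2.68 in sham, -3.78, -3.70, -3.83 and -3.92 at day 3, and -2.44, -2.81, -2.95 and -2.09 at day 7. The day 3 arrays lay close together and below every other array. Hoxb1 fell by 1.80 ± 0.31 on the log2 scale, 3.48-fold (adjusted p = 0.000442, limma), and rose 2.35-fold to day 7 (1.23 ± 0.31, adjusted p = 0.0123). At day 7 its difference from sham was -0.57 ± 0.31 (adjusted p = 0.218).

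Hoxb8, known from myeloid blood progenitors, and Hoxa6, a central gene of HoxA, have the most alike probes of the family, at chr10:85015077-85015136 and chr4:80506387-80506446 of rn4. The run they share is in capitals and comes from the end of the homeobox, which differs little between Hox genes.

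Hoxb8: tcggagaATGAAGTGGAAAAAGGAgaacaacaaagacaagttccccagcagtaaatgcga

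Hoxa6: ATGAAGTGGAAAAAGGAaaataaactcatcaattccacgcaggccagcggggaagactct

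The shared run is 17 bases long, and this was the 1 pair of probes among 378 with a shared run of 12 or more. Binding of a probe to the message of a relative was not tested. The level of Hoxb8 was -0.50, -0.61, -0.64 and -0.31 in sham, -2.12, -2.03, -2.02 and -1.85 at day 3, and -0.61, -0.13, -1.28 and -1.08 at day 7. All day 3 arrays lay below all others. Hoxb8 fell by 1.49 ± 0.22 on the log2 scale (adjusted p = 0.000165, limma) and rose by 1.23 ± 0.22 to day 7 (adjusted p = 0.00276). Its fall passed in all 24 alternatives, as did those of Hoxb4, Hoxc5 and Hoxd10.

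Hoxb4, which expands blood stem cells when overexpressed, was at 0.27, 0.21, 0.38 and -0.02 in sham, -0.37, -0.91, -1.04 and -1.26 at day 3, and -0.34, 0.50, 0.14 and 0.39 at day 7. Day 3 lay below sham without overlap, and day 7 lay in and around the sham range. Hoxb4 fell by 1.11 ± 0.22 on the log2 scale at day 3 (adjusted p = 0.00131, limma) and rose by 1.07 ± 0.22 to day 7 (adjusted p = 0.00556), which left a difference from sham of -0.04 ± 0.22 (adjusted p = 0.927).

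Hoxb3, active in the hindbrain and pharyngeal arches, was at -0.51, 0.57, -0.07 and -0.68 in sham, -0.66, -1.70, -2.86 and -1.88 at day 3, and -1.55, -1.01, -0.02 and -1.70 at day 7. Arrays of 1 group lay far apart, and day 3 replicate 1 lay within the sham range. Hoxb3 fell by 1.60 ± 0.47 on the log2 scale at day 3 (adjusted p = 0.0124, limma). Its change from day 3 to day 7 was 0.71 ± 0.47 (adjusted p = 0.265).

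Hoxb6 and Hoxb7 moved least among the HoxB genes with a call. Hoxb6 was at 1.02, 1.12, 1.36 and 1.35 in sham, 0.79, 0.15, 1.12 and 0.67 at day 3, and 1.29, 1.40, 1.09 and 1.35 at day 7, and the groups overlapped in all comparisons. It fell by 0.53 ± 0.19 on the log2 scale at day 3 (adjusted p = 0.0328, limma) and rose by 0.60 ± 0.19 to day 7 (adjusted p = 0.0338). These calls were not firm: the fall passed in 14 of 24 alternatives, and was lost without sham replicate 3 or 4 or day 3 replicate 2 or 4 (adjusted p from 0.0648 to 0.0990). It was also lost with the slide, the scan batch or the replicate number as a block (adjusted p = 0.0643, 0.0534 and 0.0526), and with total signal scaling, the value table and normexp background correction (adjusted p = 0.257, 0.0721 and 0.537). The rise passed in 15 of 24 and was lost without day 3 replicate 1, 2 or 4 or day 7 replicate 1, 2 or 4 (adjusted p from 0.0552 to 0.0916).

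Hoxb7, the gene whose promoter is used to mark the ureteric bud and collecting duct in mice, has a probe at chr10:85020791-85020850 of rn4 that also holds the hexamer AATAAA, shown in capitals in 30 of its bases.

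Hoxb7: ctgaaggatggaaaaAATAAAaaaggatta

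Its level was -0.03, 0.79, 0.49 and 0.62 in sham, 0.16, 0.15, 0.14 and 0.33 at day 3, and 0.55, 0.88, 0.63 and 0.81 at day 7. Sham replicate 1 lay below every day 3 array, and the other sham arrays lay above them. The day 3 difference from sham was -0.27 ± 0.17 (adjusted p = 0.197, limma), and without sham replicate 1 it was -0.44 (adjusted p = 0.0253). Hoxb7 rose by 0.52 ± 0.17 from day 3 to day 7, with no overlap (adjusted p = 0.0402). The rise passed in 12 of 24 alternatives, and was lost when any 1 of the 4 day 3 or the 4 day 7 arrays was left out (adjusted p from 0.0503 to 0.0968). Hoxb9, the posterior end of the tested HoxB genes, had a log2 fold change of -0.60 ± 0.50 at day 3 (adjusted p = 0.320), and of -1.10 without sham replicate 4, which lay lowest (adjusted p = 0.0337). Without sham replicate 2 it was -0.31 (adjusted p = 0.621).

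In the HoxA cluster 3 of 5 tested genes fell at day 3, with a median log2 fold change of -0.80, and none passed the threshold between day 3 and day 7, where limma gave 3 of the 5 an unadjusted p below 0.05. Some array names of this cluster are out of date. By their accession, the probe listed as Hoxa9 reads Hoxa7 and the probe listed as Hoxa10 reads Hoxa11, and by synonym the probe listed as Hoxa9l reads Hoxa9. The current names are used here. Hoxa6 was at -0.28, -0.50, -0.16 and -0.43 in sham, -1.27, -0.89, -1.54 and -1.12 at day 3, and -0.82, -0.26, -0.65 and -1.0 at day 7. All day 3 arrays lay below sham, and day 7 overlapped with both. Hoxa6 fell by 0.86 ± 0.19 on the log2 scale (adjusted p = 0.00226, limma), and its change to day 7 was 0.53 ± 0.19 (adjusted p = 0.0522). That change passed without sham replicate 3, day 3 replicate 2 or day 7 replicate 4 (adjusted p from 0.0429 to 0.0493).

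Hoxa7 lies next to Hoxa6, at chr4:80515641-80515700 of rn4. Its level was -0.02, -0.16, 0.55 and 0.35 in sham, -0.42, -0.75, -1.02 and -0.28 at day 3, and -0.35, 0.40, -0.31 and 0.28 at day 7. The day 3 arrays lay below sham, and the day 7 arrays were split between the 2 ranges. Hoxa7 fell by 0.80 ± 0.24 on the log2 scale at day 3 (adjusted p = 0.0137, limma), and its change to day 7 was 0.62 ± 0.24 (adjusted p = 0.0666, and 0.0497 without day 7 replicate 3).

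Hoxa9, a partner of Meis1 in leukaemia, was at -1.70, -1.39, -1.10 and -1.76 in sham, -1.92, -2.11, -2.67 and -2.20 at day 3, and -1.55, -1.91, -1.81 and -2.14 at day 7. Day 3 lay below sham without overlap, and day 7 overlapped with both. Hoxa9 fell by 0.73 ± 0.21 on the log2 scale (adjusted p = 0.00951, limma), and its change to day 7 was 0.37 ± 0.21 (adjusted p = 0.184).

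Hoxa11, which with its paralogues is needed for the metanephric kidney to form, was at -0.41, -0.53, -0.72 and -0.31 in sham, -0.34, -0.87, -1.04 and -0.98 at day 3, and -0.49, -0.18, -0.70 and 0.09 at day 7. All 3 groups overlapped. Its log2 fold change was -0.32 ± 0.21 at day 3 (adjusted p = 0.210, limma), 0.49 ± 0.21 between the days (adjusted p = 0.0897) and 0.17 ± 0.21 at day 7 against sham (adjusted p = 0.601). The change between the days passed without day 3 replicate 1 (0.64, adjusted p = 0.0398) and without day 7 replicate 3 (0.61, adjusted p = 0.0440).

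The HoxC cluster split. Hoxc5, a central gene of the neck and thorax, was at -0.04, -0.65, -0.31 and 0.12 in sham, -1.38, -2.43, -1.71 and -1.87 at day 3, and -0.39, -0.65, -1.35 and -0.67 at day 7. Every day 3 array lay below every other array. Hoxc5 fell by 1.63 ± 0.27 on the log2 scale, 3.09-fold (adjusted p = 0.000320, limma), and rose by 1.08 ± 0.27 to day 7 (adjusted p = 0.0116), with a difference from sham of -0.55 ± 0.27 at that time (adjusted p = 0.167).

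Hoxc4, its anterior neighbour, did not turn back. Its level was -1.45, -2.41, -2.49 and -2.22 in sham, -2.90, -3.81, -2.38 and -3.49 at day 3, and -4.48, -3.35, -4.22 and -5.09 at day 7. The day 7 arrays all lay below sham, and day 3 overlapped with both. At day 7 Hoxc4 was 2.14 ± 0.39 below sham on the log2 scale, by the measured means (adjusted p = 0.00446, limma), a call kept in 23 of 24 alternatives. The probe was above background on 1 of 4 arrays at day 7 and on all arrays of the other groups, so the size of the drop is not settled. The 3 dim arrays were also set to the higher of their own value and the lowest signal above background there. The drop was then 2.91-fold, and the difference between day 7 and day 3 was -0.54 on the log2 scale. With normexp background correction the day 7 difference from sham was -0.73 (adjusted p = 0.744) and the difference between the days turned to 0.27 (adjusted p = 0.788). Without that correction, the difference between the days was -1.14 ± 0.39 (adjusted p = 0.0447). It passed in 11 of 24 alternatives and was lost without sham replicate 2 or 4, any 1 of day 3 replicates 1, 3 and 4, or any 1 of day 7 replicates 1, 3 and 4 (adjusted p from 0.0501 to 0.127). The fall at day 3 (-1.0 ± 0.39, adjusted p = 0.0458) passed in 9 of 24 alternatives and was lost without sham replicate 1, 2 or 4, without day 3 replicate 1, 2 or 4, and without day 7 replicate 1 or 3 (adjusted p from 0.0516 to 0.132).

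Hoxc6, Hoxc12 and Hoxc13 passed in no comparison. Their mean levels were -0.79, -3.77 and -1.97 in sham, -1.13, -4.40 and -2.97 at day 3 and -0.97, -3.82 and -2.16 at day 7. Hoxc12, like Hoxd1, was bright enough to be tested only through the day 3 arrays. The log2 fold change of Hoxc13, an organiser of hair and nail, was -1.0 ± 0.53 at day 3 (adjusted p = 0.125, limma), and its sham arrays ran from -3.33 to -0.40. Without sham replicate 2 it was -1.46 (adjusted p = 0.0223), and without sham replicate 3, the highest, it was -0.48 (adjusted p = 0.368). For Hoxc6 it was -0.34 ± 0.23 (adjusted p = 0.221), -0.53 without sham replicate 3 (adjusted p = 0.0465) and -0.13 without sham replicate 1 (adjusted p = 0.605).

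Hoxa2, Hoxa13, Hoxb13 and Hoxd13 could not be tested. Hoxa13 and Hoxb13, the most posterior genes of their clusters, were above background on none of the 12 arrays. Hoxa2 was above it on 1 array, of day 3, and Hoxd13 on 1 array of each group. A second probe of Hoxc5 was dim. Of 8 tested genes in the posterior groups 9 to 13, 4 fell at day 3 (median log2 fold change -0.69). Of 10 in the central groups 4 to 8, 8 fell (median -0.83), and of 4 in the anterior groups 1 to 3, 2 fell (median -1.22). The classes were not tested against each other.

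**Figure D3:**
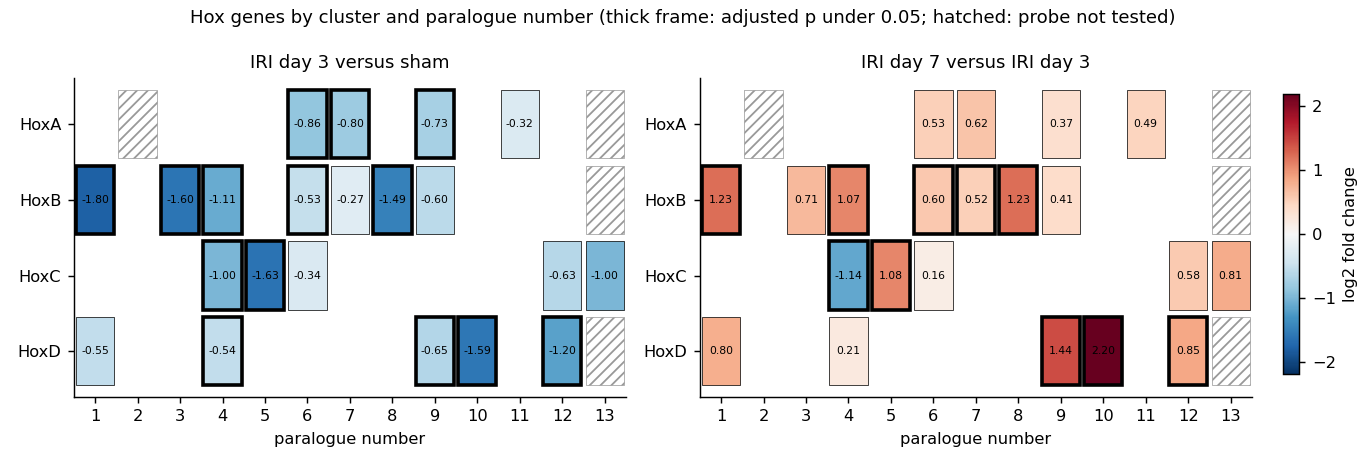
Log2 fold change of 21 tested Hox genes, placed by cluster (rows) and paralogue number (columns), at day 3 against sham and at day 7 against day 3, each on 4 against 4 arrays; a thick frame marks an adjusted p below 0.05 and hatching a gene that was not tested. Blue cells on the left (-1.80 to -0.27) face red cells on the right, apart from Hoxc4 (-1.14).

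The arrays lay on 3 slides, each with all groups. Of 22 tested Hox genes, 18 kept the direction of their fold change on every slide at day 3 against sham. At day 7 against sham 9 did so, and between the days 17. The called genes were all among them, but the calls came from these same arrays. Where groups do not overlap, the direction on each slide was fixed in advance, so this is no separate support. The median Hox difference between day 3 and sham was -0.69, -0.60 and -1.35 on slides 1 to 3, that between day 7 and day 3 was 0.81, 0.48 and 0.72, and that between day 7 and sham was 0.14, -0.21 and -0.56. Slide 3 held sham replicate 3, the array with the lowest 75th percentile. Without that sham array, 14 Hox genes fell at day 3 and 12 changed between the days, while the Hox median moved from -0.81 to -0.59 at day 3 and from -0.19 to -0.02 at day 7 against sham.

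Most markers of the collecting duct also fell at day 3 and rose again to day 7. The counts at day 3 in the marker lists stand beside 33.1% of all genes lower and 24.2% higher. Of 13 tested markers of collecting duct principal cells, 10 fell and 2, the keratins Krt8 and Krt18, rose at day 3 (median -1.14), and 11 rose between day 3 and day 7 (median 2.05). Against sham, 3 of them rose at day 7 (median 0.66), among them the water channel Aqp4 (2.81 on the log2 scale). Their summed level, as a multiple of the 75th percentile, ran from 43.7 to 60.7 on sham arrays, from 21.7 to 28.9 on day 3 arrays and from 69.3 to 86.4 on day 7 arrays. No principal cell marker was below background on all arrays of a group. All 8 intercalated cell markers fell at day 3 (median -1.69) and rose to day 7 (median 1.99), with summed levels of 17.9 to 32.6, 4.58 to 8.27 and 23.7 to 29.1. The part of these shifts in the Hox values was not tested.

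Other segments and cell types did not share one course. At day 3, 9 of 11 proximal tubule markers fell (median -2.24), as did 6 of 9 of the thin and thick ascending limb (median -2.09) and 5 of 6 of the distal convoluted and connecting tubule (median -1.91). Summed proximal tubule markers ran from 554 to 606 on sham arrays, from 63.4 to 183 on day 3 arrays and from 202 to 372 on day 7 arrays, still below sham. For the ascending limb the sums were 69.3 to 83.7, 8.39 to 17.3 and 41.9 to 53.5, and for the distal list 60.0 to 95.8, 4.75 to 8.12 and 38.7 to 59.4. Endothelial markers fell in 6 of 8 cases (sums of 17.0 to 21.8, 6.91 to 9.0 and 7.06 to 14.9) and podocyte markers in 3 of 7 (15.6 to 20.6, 5.04 to 6.72 and 6.49 to 13.6).

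Markers of stroma and myofibroblasts went the other way, with 9 of 10 higher at day 3 (median 1.33) and sums of 25.4 to 36.3, 82.9 to 130 and 62.7 to 81.0. All 8 tested markers of tubular injury rose at day 3 (median 2.86; sums of 2.73 to 3.32, 47.7 to 65.4 and 10.4 to 38.6). Of 9 macrophage markers 4 rose and 1 fell, of 7 T and NK cell markers 2 rose and 1 fell, and of 6 markers of blood progenitors and neutrophils 1 fell, shares of falls that lie below that over all genes. Of markers of neighbouring tissue, 2 of 4 of the urothelium and 1 of 3 of the adrenal gland fell, and the 1 B cell marker tested had a log2 fold change of -0.32 that did not pass. Among the genes that rose in these lists, Lum, Adgre1 and Cd3g were bright enough to be tested only through the day 3 arrays. The part of these shifts in the Hox values was not tested either.

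**Figure D4:**
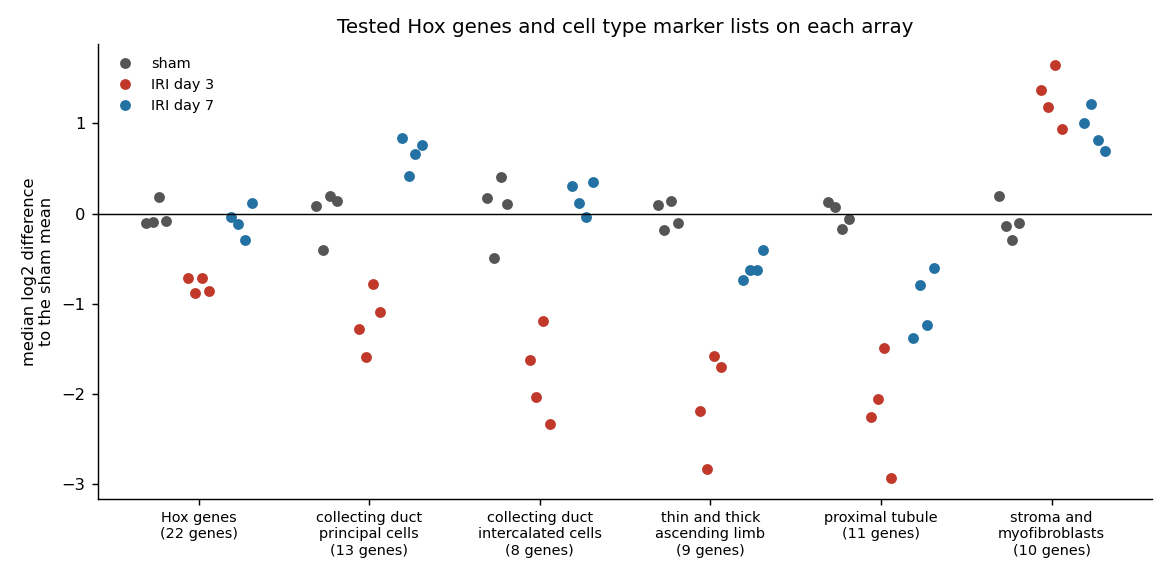
Median log2 difference from the sham mean (vertical axis) over the 22 tested Hox genes and over 5 lists of cell type markers, 1 point per array of sham, IRI day 3 and IRI day 7. The Hox points at day 3 lie between -0.88 and -0.71 and those at day 7 between -0.29 and 0.12, while principal cell markers at day 7 lie between 0.42 and 0.84.

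More of the tested partners of Hox proteins rose than fell at day 3. Of those that rose, Meis3 and Pknox1 were bright enough to be tested only through the day 3 arrays. The count of rises thus partly follows from the filter. Hox proteins bind DNA together with the TALE homeodomain factors Pbx and Meis, and of 10 tested genes of this class 5 rose and 1 fell at day 3 (median 0.47), where 24.2% of all genes rose and 33.1% fell. Among them were the repressor Tgif1 (4.07 ± 0.43 on the log2 scale, adjusted p = 2.4e-05, limma), Meis3, which was below background on all sham arrays and at least 2.14-fold higher at day 3 (adjusted p = 0.00151), and Pbx4 (-2.31 ± 0.61, adjusted p = 0.00666). At day 7, Tgif1 (2.64) and Pbx2 (0.47) were above sham, and Tgif1 was below its day 3 level (-1.42). The at least value sets each dim array to the higher of its own value and the lowest signal of any probe above background there. Such values, here and below, hold only for the background correction used.

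Hox clusters are silenced by Polycomb complexes and kept active by trithorax proteins. Of 12 tested Polycomb genes, 4 rose and 2 fell at day 3 (median 0.10), a share of changed genes near the 57.3% over all genes. Of the 4, Ezh2 and Cbx2 were bright enough to be tested only through the day 3 arrays. The methyltransferase Ezh2 was below background on all sham and day 7 arrays, at least 1.45-fold higher at day 3 than in sham (adjusted p = 0.00174) and at least 1.34-fold lower at day 7 than at day 3 (adjusted p = 0.00376). Cbx2 (1.36 ± 0.54, adjusted p = 0.0478) and Phc2 (1.31 ± 0.21, adjusted p = 0.000333) also rose at day 3. From day 3 to day 7, Cbx7 rose (1.03 ± 0.19, adjusted p = 0.00335) and Phc2 fell (-0.83 ± 0.21, adjusted p = 0.0144). Of 6 tested trithorax genes, 3 rose at day 3 (median 0.72, with 24.2% of all genes higher), namely Ash2l (1.55), Psip1 (1.29) and Wdr5 (1.11). All 3 are subunits or partners of complexes that methylate histone H3, and Wdr5 was still above sham at day 7 (0.94 ± 0.21, adjusted p = 0.0113, limma). Ash2l was likewise tested only through the day 3 arrays, and the histone demethylase Kdm6b was too dim to be tested.

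Retinoic acid, Cdx factors and Gdf11 set Hox expression in the embryo. Of 12 tested genes of this group 5 rose and 4 fell at day 3 (median -0.17), the share that fell being near the 33.1% over all genes. Of the 5, Egr2 and Aldh1a2 were bright enough to be tested only through the day 3 arrays. At day 7, 4 were above sham, where 8.21% of all genes were. Egr2, a hindbrain activator of Hox genes, was below background on all sham arrays and at least 6.37-fold higher at day 3 (adjusted p = 7e-05) and at least 2.59-fold higher at day 7 (adjusted p = 0.00641). The retinoic acid synthases Aldh1a2 (2.35 ± 0.44, adjusted p = 0.000793) and Aldh1a3 (1.45 ± 0.27, adjusted p = 0.000859) rose at day 3, and Aldh1a3 stayed above sham at day 7 (1.31 ± 0.27, adjusted p = 0.00815), as did the receptor Rara (0.75 ± 0.23, adjusted p = 0.0409). The 4 that fell at day 3 were Nr6a1 (-1.35), Cdx1 (-0.89) and the receptors Rxra (-0.66) and Rxrb (-0.56). The Cdx1 probe was very bright, with a mean level of 7.23 in sham against 6.13 for the proximal tubule marker Lrp2. Whether it binds the message of Cdx1 alone was not tested. From day 3 to day 7, Cdx1 (0.55 ± 0.13, adjusted p = 0.0105) and Rxrb (0.45 ± 0.15, adjusted p = 0.0408) rose again.

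Of 10 tested kidney genes that work with posterior Hox genes or lie downstream of them, 4 fell and 1 rose at day 3 (median -0.62), against 33.1% and 24.2% of all genes. The 1 that rose, Itga8, was bright enough to be tested only through the day 3 arrays. The largest falls were those of Wt1 (-1.65 ± 0.47, adjusted p = 0.00975), a podocyte and progenitor factor, Sall1 (-1.33 ± 0.18, adjusted p = 8.8e-05), a nephron progenitor factor, and Six2 (-0.88 ± 0.33, adjusted p = 0.0376), a target of the Hox11 genes. From day 3 to day 7, Gata3 (1.41 ± 0.24, adjusted p = 0.00212), which is also a principal cell marker here, Tfap2b (1.28 ± 0.23, adjusted p = 0.00263) and Sall1 (0.51 ± 0.18, adjusted p = 0.0457) rose. At day 7 Tfap2b stood above sham (0.78 ± 0.23, adjusted p = 0.0323) and Sall1 below it (-0.82 ± 0.18, adjusted p = 0.00980).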

How the data were processed

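Total kidney RNA was labelled with Cy3, per the labels' protocols. Signals came from Agilent Feature Extraction 9.5.1.1, with probes placed on rn4, per the file headers. The processed signal of a spot is a background-corrected intensity, per the file headers, with no scaling between arrays; the mean and local background signals are uncorrected intensities. Flags of a spot for background, saturation and outliers are scores of 0 or 1, as the file headers name them. The deposited value table of the authors is in log2; its values proved to be taken against each array's 75th percentile and centred on the median of the probe (lowest correlation with remade values 0.998; column medians -0.2089 to 0.2997); it carries no level.

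Log2 processed signals minus each array's 75th percentile were used. Spots called outliers were left out, and repeated spots of a probe averaged. The filter asked for a signal well above background on the 4 arrays of some group, and the brightest probe stood for a gene. Probes were named by accession, symbol or synonym through a RefSeq table of the assembly GRCr8. Groups were compared with limma 3.58.1 in R 4.3.3 (lmFit, eBayes, 12 arrays, 1 mean per group, two-sided), with Benjamini-Hochberg adjustment over 18503 genes and a threshold of 0.05. The scripts were tested on simulated data. Replicates are arrays of separate samples per the labels, which do not state separate animals, so p-values measure the spread between these samples.

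One tested Hox gene is counted but its own values are not reported here. The members and gene lists were chosen with earlier results of these data known. Values are given on every array for each Hox gene called in a comparison and each tested member of paralogue groups 7, 10 and 11. Of the other lists the at most 3 largest called changes per comparison are named, besides risers tested only through day 3. Same-numbered arrays were not paired: of 12 pairs, correlations of deviations ran from -0.331 to 0.142. Alternatives were normexp correction, other scalings, the value table, other filters, all probes, slide, scan batch and replicate blocks, a trended robust fit, and leaving out each array.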

Additional observations from a re-analysis of the deposited data

Results flagged for a closer look

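A sample far from the other arrays of its group was looked for among 66 groups of 4 arrays, 3 for each of the 22 tested Hox genes, and 2 were found. Chance flags about 1 in 20 such groups. Hoxb7 on day 3 replicate 4 was at 0.33, above the other day 3 arrays at 0.14 to 0.16. Hoxd4 on sham replicate 4 was at -1.57, below the other sham arrays at -1.26 to -1.20.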

How the results depend on the processing

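The counts of changed Hox genes were 14 at day 3 against sham, 2 at day 7 against sham and 10 between the days. Normexp background correction brought them to 4, 0 and 2, and those of all genes from 10602, 3483 and 5816 to 3166, 91 and 159; at day 7 against sham limma then gave 2 Hox genes an unadjusted p below 0.05. Setting aside spots below their local background first gave 19, 3 and 14 Hox genes. Total signal scaling gave 8 at day 3, against 10608 of all genes, and it turned the split of all genes from 4475 higher and 6127 lower to 6213 and 4395 at day 3, and from 1519 and 1964 to 3238 and 913 at day 7; the value table gave 1888 and 1522 at day 7, and quantile normalization 2021 and 1608. Among values past the threshold, the one reversed was Hoxc4 between the days, 0.27 with normexp. Among the others 27 changed sign over the alternatives, 7 of them at day 7 against sham and 1 at day 3 with total signal scaling, and 5 at day 7 against sham without sham replicate 3. The replicate block gave 12, 3 and 8 Hox genes; the arrays share only a number. Leaving out 1 array gave 12 to 15, 2 to 3 and 7 to 12 Hox genes, and 9299 to 10647, 2041 to 3475 and 3475 to 6667 genes in all. The causes were not tested. Dim probes, such as those of Hoxc4 at day 7, limit the precision.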

Other observations

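Some probes of Hox loci carry no Hox name in the files and were outside the rule. They were picked by description or current gene name with values seen. A probe described as like HOXA10, at chr4:80531924-80531983 of rn4 between those of Hoxa9 and Hoxa11, went against the family: its level was -3.89, -2.74, -4.15 and -3.69 in sham, -2.40, -2.03, -2.66 and -2.38 at day 3 and -2.20, -3.01, -2.65 and -2.77 at day 7. It rose by 1.25 ± 0.29 on the log2 scale at day 3 (adjusted p = 0.00294, limma) and stood 0.96 ± 0.29 above sham at day 7 (adjusted p = 0.0364). It was above background on 3 of 4 sham arrays.

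A probe described as Hoxd8, at chr3:57321608-57321667, fell by 1.77 ± 0.28 at day 3 (adjusted p = 0.000279, limma) and rose by 1.54 ± 0.28 to day 7 (adjusted p = 0.00317). A Hoxa4-like probe at chr4:80490319-80490378 fell by 1.45 ± 0.26 (adjusted p = 0.000650) and rose by 1.27 ± 0.26 (adjusted p = 0.00541). The antisense RNA Hoxa11-as, read on the strand opposite to Hoxa11, fell by 1.14 ± 0.38 at day 3 (adjusted p = 0.0220), and its change to day 7 was 0.94 ± 0.38 (adjusted p = 0.0771). Hoxb2 had a log2 fold change of -0.35 ± 0.17 at day 3 (adjusted p = 0.0988). A probe in the Hoxc6 locus had one of -0.18 ± 0.35 (adjusted p = 0.680). Hoxa3 was above background on 1 of 12 arrays and was not tested.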
